A study of Mus musculus with 21 samples.

Results

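The genes described here are Nfe2l2, which encodes the transcription factor NRF2, and 9 antioxidant genes known as its targets, namely Hmox1, Nqo1, Gclc, Gclm, Slc7a11, Txnrd1, Srxn1, Prdx1 and Gpx4. They were found by symbol among the 48474 rows of the deposited count table, which held all 10. All 10 also passed the filter on low counts and were tested among 18248 genes. Bulk RNAseq had been done on 10 rNLS8 mice (labelled TG) and 11 controls (labelled WT). The labels give the tissue as neocortex and the methods as cortex, whereas a figure legend of the study names hippocampus, and neocortex is used here. The rNLS8 mice are bigenic, with a neurofilament heavy chain promoter (NEFH-tTA) that drives human TDP-43ΔNLS, a TDP-43 without its nuclear localization signal, mainly in neurons, while the WT mice are monogenic littermates. All 21 mice had been given 350 µg (in 10 µL) of a non-targeting antisense oligonucleotide by injection into the ventricle at an age of 17 to 19 weeks, and had eaten chow with 200 mg/kg doxycycline, which keeps the transgene off, until 2 weeks later. Tissue was taken after 3 further weeks without doxycycline. No group without the injection was analysed here, and sexes are not listed per mouse, while the study says that naive rNLS8 mice of both sexes were pooled. Batch A held 4 WT and 3 TG mice, batch B 7 of each. The comparison asks how the antioxidant genes differ in cortex in which neurons have expressed cytoplasmic TDP-43 for 3 weeks.

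NRF2 is normally bound by KEAP1, an adaptor that passes it to a ubiquitin ligase for degradation. Oxidants and electrophiles modify KEAP1, NRF2 then builds up, pairs with small MAF proteins in the nucleus and binds the antioxidant response element of its target genes. Because this control acts on the protein, the mRNA of Nfe2l2 is not a measure of NRF2 activity. In the brain the pathway is known to be more active in astrocytes, microglia and vessel cells than in neurons. The targets supply glutathione (Slc7a11, Gclc, Gclm), run the thioredoxin and peroxiredoxin system (Txnrd1, Srxn1, Prdx1), degrade haem (Hmox1), reduce quinones (Nqo1) or remove lipid peroxides (Gpx4).

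The core of the antioxidant response element, TGACNNNGC, was searched on both strands of RefSeq promoters of build GRCm38.p6, from 250 bases before to 50 bases after each start site. The promoter table held 8 of the 10 genes, with 13 promoters, and did not list Hmox1 and Gclc. The core was in 5 of these 13 promoters, 1 each of Nfe2l2, Gclm, Prdx1, Txnrd1 and Srxn1, and in 12.4% of all 32851 promoters. The stretches are shown because they hold the letters that NRF2 is known to bind. Of these 5 genes 1, Txnrd1, was called higher, near the 23.0% of all genes, so that the count says nothing about genes with the core. The core is in capitals, each stretch is read 5′ to 3′ on the strand that carries it, and overlapping motifs were not separated.
Nfe2l2, chr2:75704885-75704913, centred 236 bases before the start site: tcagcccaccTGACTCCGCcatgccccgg
Gclm, chr3:122245413-122245441, opposite strand, 130 bases before: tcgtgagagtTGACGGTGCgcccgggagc
Prdx1, chr4:116685456-116685484, opposite strand, 129 bases before: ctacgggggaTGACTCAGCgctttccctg
Txnrd1, chr10:82859104-82859132, opposite strand, 88 bases before the start site of 1 of its 3 promoters: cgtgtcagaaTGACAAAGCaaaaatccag
Srxn1, chr2:152105542-152105570, opposite strand, 32 bases after: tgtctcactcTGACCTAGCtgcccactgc
A match is a description of these letters and not a measured site. Distances are from the start site of each listed promoter, which for Gclm lies downstream of the first base of the gene given below. No match was found in these windows of Nqo1, Slc7a11 and Gpx4, which says only that the letters are absent there.

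Between 20700912 and 22263809 reads per mouse were counted, so that 3 counts correspond to between 0.1347 and 0.1449 CPM (counts scaled to the total of a mouse). Genotypes were compared with edgeR's quasi-likelihood test with batch as covariate and Benjamini-Hochberg adjustment over all 18248 genes. At an adjusted p-value under 0.05, 44.7% of these genes were called, 4190 higher (23.0%) and 3964 lower (21.7%) in TG mice. With scaling by library size alone, the split was 5832 higher and 2752 lower. The median log2 fold change of these genes was then 0.076, against -0.00067 in the main fit. Values of single genes with that scaling are to be read against this common shift. Tardbp, which can hold only part of the human transgene's reads, was higher by 0.62 on the log2 scale (standard error, or SE, of 0.071, adjusted p = 1.50e-07). The difference was 0.79 in batch B alone (SE 0.039, adjusted p = 1.42e-10) and 0.26 in batch A alone, where it missed the threshold (SE 0.12, adjusted p = 0.191). The mouse T61340, labelled TG, had 2363 normalized counts, within the WT range of 2253 to 2827. That mouse stood apart in another way: over 13355 genes, its deviation from the other mice of its genotype was more negative the longer the exons (Spearman rho -0.536), against -0.194 to 0.385 in the other 20 mice. Genes are not independent, and results of the 10 genes whose call rests on this mouse are also given without it.

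Of the 10 genes, 3 were higher in TG mice (Hmox1, Txnrd1 and Gclc), 1 was lower (Gpx4) and 6 were not past the threshold. Their median log2 fold change was 0.10, against -0.00067 over all genes tested. With 4 called of 10, the share was near that of 44.7% over all genes. Hmox1 was set apart by size, since 242 of the 18248 genes (1.33%) had a larger log2 fold change. The other members lay between -0.17 and 0.24 on the log2 scale. Without T61340 and T60303 (both TG), 4 genes were higher and 1 was lower, the additional one being Gclm. In that fit 3942 of all 18390 genes tested were higher and 3726 were lower.

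**Figure D1:**
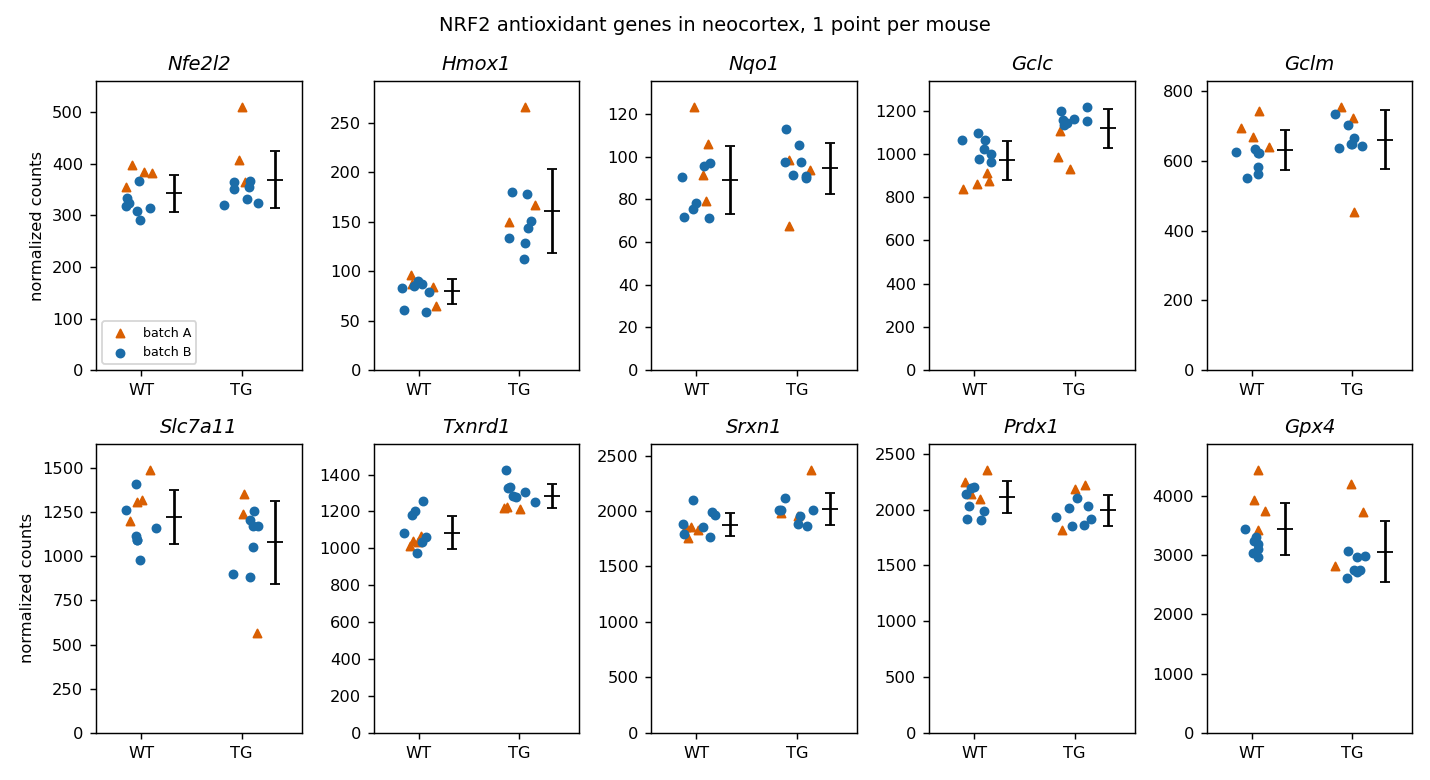
Normalized counts (vertical axis, from 0) of the 10 genes in each of 11 WT and 10 TG mice, with batch A as triangles, batch B as circles, and the mean ± SD as a bar beside each group. The ranges of WT and TG do not overlap for Hmox1 and overlap for the other 9 genes.

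Nfe2l2 lies on chromosome 2 of GRCm38 from 75675513 to 75704663. Its lowest, median and highest WT mouse had 290 (290.2), 333 and 397 normalized counts, meaning counts put on a common scale by TMM library sizes. The TG mice had 320 (320.3) at the lowest, 359 at the median and 509 at the highest, and 2 of the 10 were above every WT mouse. Both of these, T60303 at 509 and T61340 at 408, belong to batch A, and the remaining TG mice lay inside the WT range. The mean was 343 ± 35.7 in WT and 369 ± 55.4 in TG mice (SD, n = 11 and 10), a log2 fold change of 0.12 (95% interval 0.0076 to 0.23), which was not past the threshold after adjustment (adjusted p = 0.0771 from edgeR). It was lower without T60303 (0.08, adjusted p = 0.219) and reached the threshold with scaling by library size alone (0.20, adjusted p = 0.00822) or when either T_69527 (WT) or T61342 (TG) was left out (0.15 each, adjusted p = 0.0285 and 0.0305). Batch A gave 0.19 and batch B 0.09 on the log2 scale, neither past the threshold (adjusted p = 0.381 and 0.263).

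Hmox1 encodes haem oxygenase, the inducible enzyme that opens the haem ring to give biliverdin, carbon monoxide and iron. It lies on chromosome 8 from 75093618 to 75100593. WT mice had 58.9, 84.3 and 96.5 normalized counts at the lowest, median and highest, TG mice 113, 150 (150.3) and 266. Every TG mouse was therefore above every WT mouse, a separation seen in this direction for 3.85% of all genes tested. The mean rose from 79.7 ± 12.6 (SD, n = 11) to 161 ± 42.5 (SD, n = 10), a log2 fold change of 1.02 (SE 0.12, adjusted p = 1.46e-07 from edgeR) or 2.03-fold. It was 1.25 in batch A alone (adjusted p = 0.00521) and 0.90 in batch B alone (adjusted p = 1.09e-05), and remained between 0.92 and 1.06 with each mouse left out in turn. T60303 was the highest at 266, ahead of the next TG mouse at 179.9, and without it the log2 fold change was 0.92 (adjusted p = 1.46e-07).

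Values of other cell types' markers are given beside Hmox1, since some were highest in the same mouse. The summed normalized counts of the reactive astrocyte genes Gfap and Vim ranged from 3026 to 5364 in WT and from 4966 to 13521 in TG mice, with the highest value again in T60303, and both genes were higher. Those of 5 microglia markers ranged from 4357 to 5029 in WT and from 4284 to 5655 in TG mice, the latter again in T60303, and the groups overlapped. Of these, Tmem119, Csf1r and Aif1 were higher, P2ry12 was lower and Cx3cr1 was not past the threshold. The 5 markers of border macrophages, where Hmox1 is known to be abundant, were all detected, ranged from 142 to 285 in sum in WT and from 179 to 341 in TG mice, and none was past the threshold. The 5 haemoglobin and erythroid genes, none past the threshold, ranged from 1338 to 8045 in WT and from 634 to 5179 in TG mice. The part of these cells in the difference of Hmox1 was not tested. In bulk tissue, more cells of a type and more RNA per cell cannot be told apart.

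Nqo1, the quinone reductase gene often used as a readout of NRF2, lies on chromosome 8 from 107388225 to 107403205. WT mice had 71.5, 90.6 and 123 normalized counts at the lowest, median and highest, TG mice 67.3, 95.7 and 113. No TG mouse was above the WT range and 1, T61342, was below it. The log2 fold change was 0.10 (95% interval -0.11 to 0.30, adjusted p = 0.470 from edgeR), so that the upper bound lies below the difference of Hmox1. Without T61342 it was 0.16, also not past the threshold (adjusted p = 0.168). The direction was not the same in the batches, with -0.18 in batch A (adjusted p = 0.626) and 0.23 in batch B (adjusted p = 0.0617).

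Among the glutathione genes, Gclc encodes the catalytic subunit of glutamate-cysteine ligase, the rate-limiting enzyme of glutathione synthesis, and lies on chromosome 9 from 77754535 to 77794489. Its WT mice had 837, 974 and 1096 normalized counts at the lowest, median and highest, its TG mice 930.0, 1147 and 1215. Of the 10 TG mice, 8 were above every WT mouse, and the WT mice of batch A were lower (870.0 ± 30.1, SD, n = 4) than those of batch B (1026 ± 50.8, SD, n = 7). Gclc rose by 0.19 on the log2 scale (SE 0.036, adjusted p = 0.000104 from edgeR), or 1.14-fold. Batch B by itself gave 0.18 (adjusted p = 0.00126), and batch A 0.23, which missed the threshold (adjusted p = 0.155).

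Gclm encodes the modifier subunit of the same ligase and lies on chromosome 3 from 122245487 to 122267215. WT mice had 549.6, 626 and 742 normalized counts, TG mice 454, 657 and 753, at the lowest, median and highest. The lowest value belongs to T61340, and the next TG mouse had 638. Over all mice the log2 fold change was 0.07 (95% interval -0.066 to 0.22, adjusted p = 0.399 from edgeR). It was 0.14 without T61340 (adjusted p = 0.00659), 0.15 in batch B alone (adjusted p = 0.0222) and -0.07 in batch A alone (adjusted p = 0.817), so that this single mouse decides the call. The exons of Gclm share 244 bases with Gm6061, a processed pseudogene on the same strand, and 296 bases with Gm17494 on the other. The row of Gm6061 held more counts than Gclm (1051 ± 112 in WT, SD, n = 11) and was lower in TG mice (log2 fold change -0.33, adjusted p = 0.000117 from edgeR), so that the level of Gclm is uncertain.

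Slc7a11 encodes xCT, the light chain of the cystine/glutamate exchanger that supplies cysteine for glutathione, and lies on chromosome 3 from 50364936 to 50499087. WT mice had 978, 1197 and 1488 normalized counts at the lowest, median and highest, TG mice 568, 1169 and 1350 (1349.7). The groups overlapped widely, and 3 of 10 TG mice were below every WT mouse, T61340 by far. The log2 fold change was -0.17 (95% interval -0.39 to 0.056, adjusted p = 0.219 from edgeR), and -0.07 without T61340 (adjusted p = 0.422).

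In the thioredoxin group, Txnrd1 encodes the cytosolic thioredoxin reductase, a selenoprotein that returns electrons from NADPH to thioredoxin, and lies on chromosome 10 from 82833951 to 82897724. WT mice had 977, 1061 and 1254 normalized counts at the lowest, median and highest, TG mice 1213, 1280 (1280.3) and 1424. All TG mice lay in the upper part of the WT range or beyond, 6 of them above every WT mouse. Txnrd1 rose by 0.24 on the log2 scale (SE 0.040, adjusted p = 3.74e-05 from edgeR), or 1.18-fold. The rise was 0.26 in batch A alone (adjusted p = 0.0927) and 0.23 in batch B alone (adjusted p = 0.00175), and its adjusted p stayed at or below 0.000107 with each mouse left out in turn.

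Srxn1 encodes sulfiredoxin, which repairs over-oxidized peroxiredoxins, and lies on chromosome 2 from 152105524 to 152111376. WT mice had 1756, 1855 and 2097 normalized counts at the lowest, median and highest, TG mice 1868, 1993 and 2369. The highest TG mouse was T61340, ahead of the next at 2119. The log2 fold change of 0.10 (95% interval 0.015 to 0.19) was just outside the threshold (adjusted p = 0.0528 from edgeR) and inside it with DESeq2 with batch (0.10, adjusted p = 0.0429). Scaling by library size alone gave 0.18 (adjusted p = 0.00113). Srxn1 was also inside the threshold with DESeq2 with genotype alone, at least 10 counts in every mouse or copies left out (adjusted p = 0.0440, 0.0460 and 0.0488). It stayed outside with edgeR without batch, upper quartile scaling or no filter (adjusted p = 0.0615, 0.0596 and 0.0738). The value was 0.23 in batch A alone and 0.04 in batch B alone, neither past the threshold (adjusted p = 0.184 and 0.431). Without T61340 it was 0.07 (adjusted p = 0.117), whereas leaving out T_69523, T_69532, T_70262 (WT), T_69531 or T_70261 (TG) brought it inside the threshold (adjusted p down to 0.0218).

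Prdx1 encodes a peroxiredoxin that removes hydrogen peroxide and lies on chromosome 4 from 116685599 to 116700000. WT mice had 1904, 2143 and 2355 normalized counts at the lowest, median and highest, TG mice 1820.0, 1974 and 2221. The TG mice spread over most of the WT range, and 3 were below it. The log2 fold change was -0.08 (95% interval -0.16 to 0.011, adjusted p = 0.149 from edgeR) and 0.0011 with scaling by library size alone, where its sign turned (adjusted p = 0.986).

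Gpx4 encodes the selenoprotein glutathione peroxidase that reduces lipid peroxides in membranes and thereby restrains ferroptosis. It lies on chromosome 10 from 80047166 to 80056439. WT mice had 2972, 3311 and 4432 normalized counts at the lowest, median and highest, TG mice 2612, 2893 and 4204. Of the TG mice, 5 were below every WT mouse, while the TG mouse with 4204 was T61340. Gpx4 fell by 0.15 on the log2 scale (SE 0.057, adjusted p = 0.0336 from edgeR), or to 0.900 of the WT level. This call was weak, since it held in 12 of 21 fits that left out 1 mouse each (adjusted p up to 0.0717), was not past the threshold with scaling by library size alone (-0.07, adjusted p = 0.303), and was past it in batch B alone (-0.18, adjusted p = 0.00404) and not in batch A alone (-0.09, adjusted p = 0.735), with no difference between the batches past the threshold (-0.05, SE 0.12, adjusted p = 0.971). The mice without which it was lost were T61331 (WT), T61333 (WT), T_70260 (WT), T_70264 (WT), T61342, T_69524, T_69531, T_70263 and T_70267, and without T61340 it was larger (-0.19, adjusted p = 0.00471). A transcribed processed pseudogene, Gpx4-ps2, has a row of its own, which was lower as well (log2 fold change -0.18, adjusted p = 0.0204 from edgeR), so that reads may be split between both rows.

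**Figure D2:**
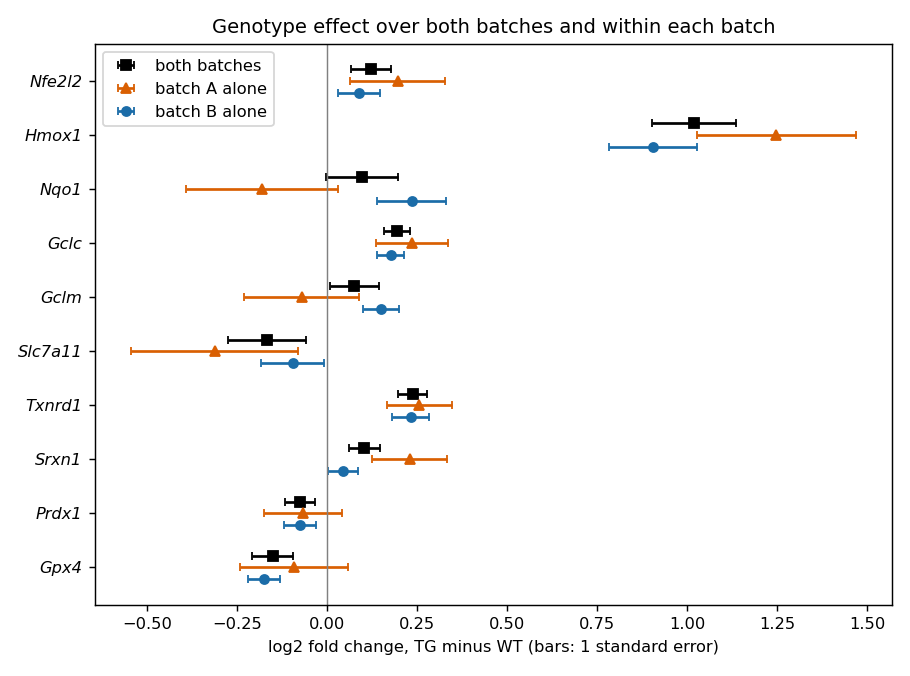
Log2 fold change of TG against WT (horizontal axis, bars are 1 standard error) for the 10 genes over both batches, in batch A alone (4 WT and 3 TG mice) and in batch B alone (7 and 7). Hmox1 is at 1.02, 1.25 and 0.90, while Nqo1 and Gclm lie on opposite sides of 0 in the batches.

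Of all genes, fewer were called in either batch by itself. In batch A 1 of the 10 genes was called, Hmox1, where 11.8% of all genes were called (6.99% higher and 4.83% lower). In batch B 5 were called, 4 higher (Hmox1, Gclc, Gclm and Txnrd1) and 1 lower (Gpx4), where 39.1% of all genes were called (19.3% higher and 19.8% lower). Whether the genotype effect differed between the batches was tested as an interaction over all genes with edgeR, and 0 of 18248 genes were called. DESeq2 called 1, and 1030 genes reached an unadjusted p-value under 0.05 in edgeR. Among the 10 genes, Nqo1 had the only unadjusted p-value under 0.05 (p = 0.0327, adjusted p = 0.855, edgeR), with an effect that was larger by 0.45 on the log2 scale in batch B.

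Per length of exon, in normalized counts per kilobase, Gpx4 was the most abundant of the genes in WT mice at 1995 ± 255 (SD, n = 11). Prdx1 (694 ± 46.3) and Srxn1 (666 ± 36.9) followed and did not differ beyond their spread. Gclc was at 257 ± 23.7 and Txnrd1 at 153 ± 12.4 per kilobase. Gclm (100.3 ± 8.96), Nfe2l2 (90.4 ± 9.42) and Slc7a11 (87.6 ± 11) overlapped in their spread, as did Nqo1 (57.3 ± 10.3) and Hmox1 (45.5 ± 7.17) at the lower end. In TG mice, the mean of Hmox1 was 91.9 ± 24.3 per kilobase (SD, n = 10), above that of Nqo1 at 60.9 ± 7.64, though their spreads still just overlapped. Hmox1 was then in the range of Nfe2l2 at 97.3 ± 14.6. These levels use the union of GENCODE exons, which need not be the transcript expressed in cortex.

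Whether mice with more Nfe2l2 mRNA also had more mRNA of its targets was examined within each genotype after subtraction of batch means, by Pearson's r and Spearman's rho with 100000 permutations within batch. None of the 18 relations was past the threshold after adjustment (smallest adjusted p = 0.427 for r and 0.169 for rho), while 1 had an unadjusted permutation p under 0.05 for r and 3 for rho. The former was Txnrd1 in the 11 WT mice (r = 0.682, permutation p = 0.0400, rho = 0.727, permutation p = 0.0180, and r = 0.700 without the 2 mice farthest from the median of Nfe2l2). In the 10 TG mice the same relation had the opposite sign (r = -0.286, permutation p = 0.173, rho = -0.285, permutation p = 0.367, and r = -0.613 without the 2 farthest mice). Hmox1 had r = 0.600 in WT mice (permutation p = 0.0712, rho = 0.736, permutation p = 0.0188, and r = 0.544 without the 2 farthest mice) and r = 0.441 in TG mice (permutation p = 0.471, rho = 0.212, permutation p = 0.667), where r was -0.50 without the 2 farthest mice. In TG mice the 2 farthest mice were T60303 and T61340, both of batch A. Only T61342 of that batch then remained, so that r in TG mice without those 2 describes batch B. It cannot show whether a relation rests on single mice. Gpx4 in WT mice had a negative relation (r = -0.527, permutation p = 0.0618, rho = -0.664, permutation p = 0.0392, and r = -0.564 without the 2 farthest mice).

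**Figure D3:**
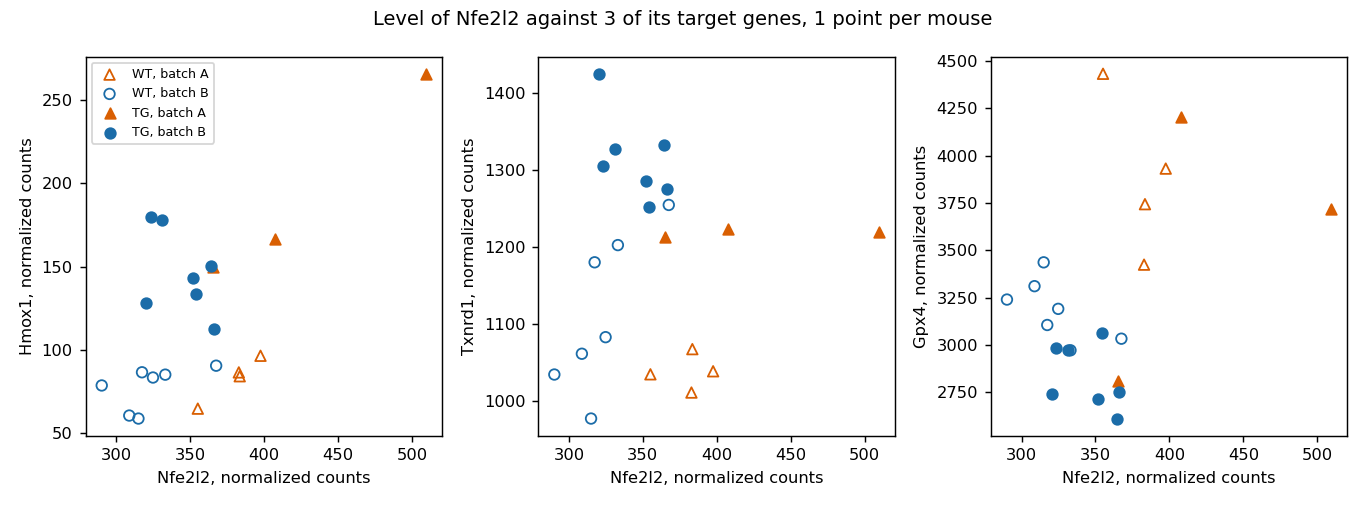
Normalized counts of Nfe2l2 (horizontal axis) against Hmox1, Txnrd1 and Gpx4 (vertical axes, not starting at 0), 1 point per mouse, WT open and TG filled, batch A as triangles and batch B as circles. T60303 lies far from the others at 509 counts of Nfe2l2 and 266 of Hmox1, and TG and WT mice separate by Hmox1 but not by Nfe2l2.

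A list of 73 further genes of the pathway, all of them tested, held 19 that were higher and 12 that were lower in TG mice, with a median log2 fold change of 0.06. The 31 called genes were 42.5% of the list, near the 44.7% of all genes. In 5 of the 73 every TG mouse was above every WT mouse (Keap1, Syvn1, Slc3a2, Sesn2 and Ftl1), and in 1 every TG mouse was below (Sod2), against 3.85% and 3.80% of all genes. The counts of each list stand against 23.0% higher and 21.7% lower over all genes. In batch A alone, where 11.8% of all genes were called, Syvn1, Slc3a2, Sesn2, Taldo1, Idh1, Ftl1, Sod2 and Acsl4 were called. The other genes called over both batches, Keap1, Btrc, Txn1 and Sod1 among them, missed the threshold there.

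Among 14 regulators, 5 were higher and 1 was lower, in all a share near the 44.7% of all genes. Keap1, the inhibitor of NRF2, rose from 1630.1 ± 53.1 (SD, n = 11) to 1992 ± 152 normalized counts (SD, n = 10), with WT mice between 1514 and 1734 and TG mice between 1867 and 2348. This was a log2 fold change of 0.29 (SE 0.040, adjusted p = 1.95e-06 from edgeR). Syvn1, which encodes the endoplasmic reticulum ubiquitin ligase HRD1 that can also degrade NRF2, rose by 0.38 (SE 0.054, adjusted p = 2.49e-06), from WT mice between 775 and 953 to TG mice between 1009 and 1362. Btrc, the substrate adaptor of a further ligase for NRF2, fell by 0.25 (SE 0.046, adjusted p = 0.000105). Bach1, a repressor that competes with NRF2 at Hmox1, rose by 0.22 (adjusted p = 0.0111), with 0.11 in batch A, where the call was lost (adjusted p = 0.677), and 0.28 in batch B. The small MAF gene Maff rose by 0.48 from only 19.5 ± 6.59 normalized counts in WT mice (SD, n = 11; adjusted p = 0.00786 from edgeR). Nfe2l1, a relative of NRF2, had 0.08 (adjusted p = 0.0468), a call that was lost (adjusted p up to 0.0775) without any 1 of 11 mice, namely T61331, T61333, T_69523, T_70262 and T_70264 (WT) and T61340, T61342, T_69524, T_69526, T_70252 and T_70267 (TG).

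Of 16 glutathione genes, 4 were higher and 1 lower, where 44.7% of all genes were called. A difference between these shares was not tested. Slc3a2, the heavy chain that carries xCT to the membrane, rose by 0.56 on the log2 scale (SE 0.049, adjusted p = 2.31e-09 from edgeR), with WT mice between 2062 and 2799 and TG mice between 2844 and 4089 normalized counts, while its partner Slc7a11 was not past the threshold. Slc3a2 also serves other amino acid exchangers. Gpx3, the extracellular glutathione peroxidase, rose by 0.69 (SE 0.23, adjusted p = 0.0149), but with 1 TG mouse, T_69531, at 618 against 350 (350.3) in the next, and it was 0.26 in batch A alone (adjusted p = 0.647). Gstt1, a glutathione transferase, rose by 0.30 (adjusted p = 0.00277). Gss, the second enzyme of glutathione synthesis, and Gsta4, a transferase for lipid aldehydes, are named after their values were seen, with log2 fold changes of 0.30 and -0.30 (adjusted p = 0.000177 and 0.00295).

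Of 13 thioredoxin and peroxiredoxin genes, 4 were higher and 1 lower, where 44.7% of all genes were called. A difference between these shares was not tested either. Sesn2, a stress-induced gene that limits mTORC1 and is also known as a target of ATF4 and p53, had the highest log2 fold change of the 73 genes at 1.24 (SE 0.074, adjusted p = 3.75e-12 from edgeR), from 260 ± 30.0 (SD, n = 11) to 610 ± 137 normalized counts (SD, n = 10). Its WT mice lay between 217 and 309.8 and its TG mice between 459 and 826. Txn1, the cytosolic thioredoxin that Txnrd1 reduces, fell by 0.27 (SE 0.048, adjusted p = 4.43e-05), opposite in sign to Txnrd1. Prdx4, the peroxiredoxin of the endoplasmic reticulum, rose by 0.24 (adjusted p = 0.00169), but missed the threshold in each batch taken singly (adjusted p = 0.0870 in A and 0.0511 in B). Prdx2 and Prdx3, named after their values were seen, rose by 0.13 and 0.09 (adjusted p = 0.0159 and 0.0311).

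The remaining lists were small. Among 6 genes of NADPH supply, Taldo1 and Idh1 fell by 0.32 and 0.23 on the log2 scale (adjusted p = 5.51e-05 and 0.000935 from edgeR), and none was higher. Of 9 genes of quinone, carbonyl and xenobiotic metabolism, Ephx1 and Akr1a1 rose by 0.27 and 0.25 (adjusted p = 0.0109 and 6.68e-05), Akr1b3, named after its values were seen, rose as well, and Cbr3 fell by 0.39 (adjusted p = 0.000275). The call of Ephx1 was lost without T61340 and T60303 together (0.20, adjusted p = 0.0809). Of 5 haem and ferritin genes, 3 were higher and 1 was lower, while Hmox2, the other haem oxygenase gene, was not past the threshold (0.05, adjusted p = 0.468). Downstream of haem oxygenase, Blvra and Blvrb, which encode the biliverdin reductases, rose by 0.19 and 0.30 (adjusted p = 0.00608 and 0.0139). Blvrb was past the threshold in neither batch taken singly and was lost without T61340 and T60303 (0.22, adjusted p = 0.0949). Ftl1, the ferritin light chain, rose by 0.67 (SE 0.058, adjusted p = 1.74e-09), from WT mice between 3918 and 5557 to TG mice between 6145 and 9499 normalized counts. Fth1, the ferritin heavy chain and named after its values were seen, fell by 0.16 (adjusted p = 0.0180). Ferritin genes have many processed copies, so that their levels are uncertain.

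Of 4 genes that remove superoxide and hydrogen peroxide, 3 were lower, where 21.7% of all genes were. Sod2, the mitochondrial superoxide dismutase, fell from 3075 ± 149 (SD, n = 11) to 2209 ± 318 normalized counts (SD, n = 10), with the lowest WT mouse at 2866 and the highest TG mouse at 2509. This was a log2 fold change of -0.50 (SE 0.060, adjusted p = 3.24e-07 from edgeR). Sod1, the cytosolic enzyme, fell by 0.34 (adjusted p = 1.57e-05) and Cat, catalase, by 0.12 (adjusted p = 0.0244), although the call of Cat was lost without T61342 (-0.10, adjusted p = 0.0541), with scaling by library size alone (-0.04, adjusted p = 0.489) and within each batch (A, adjusted p = 0.267, and B, adjusted p = 0.173). Of 6 genes of lipid peroxidation beside Gpx4, Acsl4, which loads membranes with the polyunsaturated fatty acids that peroxidize, fell by 0.47 (SE 0.065, adjusted p = 2.07e-06). Sephs2, which makes the selenium donor for selenoproteins, fell by 0.15 (adjusted p = 0.0178), and neither list held a gene that was called higher. The call of Sephs2 was lost with scaling by library size alone (-0.07, adjusted p = 0.246).

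**Figure D4:**
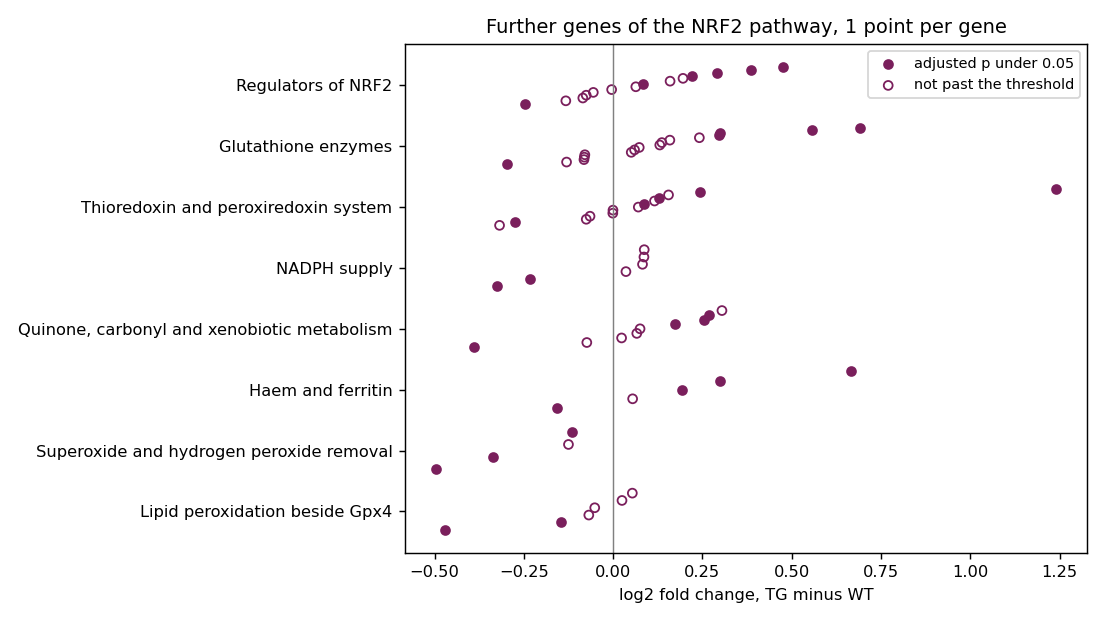
Log2 fold change of TG against WT (horizontal axis) for the 73 further pathway genes, 1 point per gene, in 8 lists, filled where the adjusted p-value was under 0.05. Sesn2 is the point at 1.24, and no filled point of the NADPH, peroxide removal and lipid peroxidation lists lies above 0.

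Markers of the tissue's cell types are read against the 44.7% of all genes that were called (21.7% lower). Of 7 neuron markers, all detected, 5 were lower (Snap25, Syt1, Gad1, Gad2 and Map2). Rbfox3 and Slc17a7 were not past the threshold (log2 fold change -0.10 and 0.06, adjusted p = 0.189 and 0.561 from edgeR). The summed normalized counts of the 7 ranged from 133549 to 164363 in WT and from 101881 to 126500 in TG mice. Of 7 astrocyte markers 5 were lower (104863 to 132888 in WT and 89517 to 111339 in TG mice). Among the 5 endothelial markers 1 was lower, and of the 6 oligodendrocyte, 3 precursor, 4 mural and 3 choroid plexus or ependymal markers none was past the threshold. The choroid plexus and ependymal sum varied most, from 314 to 43788 in WT and from 497 to 22842 in TG mice. The 3 T cell markers were too low to be tested, with at most 6.62 normalized counts in sum. The part of cell composition in the genes above was not tested.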

How the data were processed

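Neocortex RNA of 21 mice (11 WT, 10 TG) was sequenced in paired ends. The deposited table holds the authors' raw counts, 1 whole number per gene symbol and mouse. The submitters' processing notes name HISAT2, Bowtie2, RSEM and mm10, and the methods name GRCm38 and DESeq2. The program and strand setting of the counting are not given in the sources used here. Rows of further gene copies (2553 rows, 4.11% of counts) were kept.

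Genotype and batch were taken from the sample labels. Counts were tested in R 4.3.3 with edgeR 4.0.16 (TMM, minimum count 10, minimum total 15, quasi-likelihood test with batch, Benjamini-Hochberg adjustment over 18248 genes, threshold 0.05). All tests were two-sided. Standard errors were derived from each test's F statistic, and 95% intervals from its degrees of freedom. Correlations used log2 CPM with a prior count of 2. Alternatives were DESeq2 1.42.0 with and without batch, edgeR without batch, scaling by library size or upper quartile, no filter or at least 10 counts in every mouse, copies left out, each batch alone, and leaving out mice. The procedures were tested on simulated counts. Total counts ranged from 20700912 to 22263809 per mouse; reads carried no molecular identifiers, so the value of 3 counts covers counting error only. No 2 mice agreed within sampling noise (smallest chi-square per degree of freedom 4.40).

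Members, gene lists and tests were chosen with earlier results of these data known. Named were all 10 members, called regulators, up to 3 called genes per further list with the largest change, Tardbp, and the 3 genes most like Nfe2l2. Positions and promoters are from RefSeq for GRCm38.p6 and exon lengths from GENCODE M21. Each sample is a separate mouse. A further listed marker gene is not reported here and was left out of its list.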

Additional observations from a re-analysis of the deposited data

Results flagged for a closer look

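Single TG mice were searched for values far from the other 9 by Dixon's criterion, the gap to the nearest mouse divided by the whole range of the 10, against its 95% critical value. This was done for 39 genes named here, of which 9 passed. Leaving aside C4b, Gbp10 and Asah1, which were chosen for their likeness to Nfe2l2 over these mice, 7 of 36 passed where about 1.80 are expected by chance if the 10 mice were alike. The batches were pooled here although levels differ between them, and 8 of the 9 concern the 3 TG mice of batch A, so that this number is only a rough guide. The genes are not independent either. T60303 was far above the others for Nfe2l2 (ratio 0.539, at 509 against 408 in the next mouse), Hmox1 (0.560, at 266 against 180 (179.9)), C4b (0.742) and Gbp10 (0.507). T61340 was far below for Gclm (0.615, at 454 against 638) and far above for Srxn1 (0.50, at 2369 against 2119) and Akr1a1 (0.618, at 9277 against 7709). T61342, also of batch A, was far below for Nqo1 (0.50, at 67.3 against 90.1), and T_69531 of batch B was far above for Gpx3 (0.617, at 618 against 350 (350.3)).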

How the results depend on the processing

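Batch A alone, with 4 WT and 3 TG mice, called 2195 of all genes, 1 of the 10 NRF2 antioxidant genes (1 higher and 0 lower) and 8 of the 73 further genes, against 8154, 4 (3 and 1) and 31 over both batches. Scaling by library size alone gave 5 higher and 0 lower among the 10 genes, and 5832 higher and 2752 lower among all 18248. No gene of the 10 was called lower with DESeq2 with genotype alone, edgeR without batch or no filter (0 each). Of all genes, 3732 of 18248, 3602 of 18248 and 3557 of 35145 were lower in these fits. With each mouse left out in turn, between 7805 and 8363 of all genes, 3 to 5 of the 10 genes, 0 to 1 lower ones and 29 to 35 of the further genes were called. Signs turned for Nqo1 (-0.18) and Gclm (-0.072) in batch A alone and for Prdx1 (0.0011) with scaling by library size alone. Hmox1 was past the threshold under every alternative run. The genotype by batch interaction was also fitted with DESeq2, library size or upper quartile scaling, no filter and each mouse left out, with 0 of the 10 genes called. Over single genes, 1071 values kept their direction and their side of the threshold, 62 lost the call, 16 gained it and 3 turned. No paired analysis was possible because the mice carry animal numbers that no WT and TG mouse share. Depth limits the precision of genes with few counts such as Maff.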

Other observations

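The genes whose pattern over the 21 mice was most like that of Nfe2l2, after removal of genotype and batch, were C4b, Gbp10 and Asah1, out of 13809 genes with at least 50 counts per mouse on average. C4b, a complement component, had Pearson's r = 0.815 and Spearman's rho = 0.740 with Nfe2l2, and r = 0.692 without T60303. Gbp10, an interferon-induced GTPase, had r = 0.753 and rho = 0.751, and r = 0.688 without that mouse. Asah1, the lysosomal acid ceramidase, had r = 0.739 and rho = 0.629, and r = 0.575 without it or 0.446 without the 2 mice farthest from the median of Nfe2l2, where C4b had 0.681 and Gbp10 0.713. They were picked as the highest of many and carry no test. Of the 3, C4b and Gbp10 were higher in TG mice, by 2.12 and 3.06 on the log2 scale (adjusted p = 9.63e-12 and 3.52e-11 from edgeR), with every TG mouse above every WT mouse. Asah1 had a log2 fold change of 0.05 (adjusted p = 0.353).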
